A study of Bos taurus with 16 samples.

Results

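Gene expression was compared between day 8 bovine blastocysts that had been cultured with LY2955303 (LY), an inhibitor of the retinoic acid receptor RARγ, from the 2-cell stage (cell2_LY) and blastocysts that had been cultured with its DMSO vehicle (LY_DMSO). The comparison held 4 of the 16 libraries of the series, 2 in each group, and these were taken by their labels alone. Each library was made from 1 whole in vitro fertilized blastocyst, and all 4 carry the same labels for genotype (WT) and batch (1). The label of the control group joins the name of the compound with DMSO and was read as vehicle, and the concentration of LY in cell2_LY is not in its label. The other libraries are 2 blastocysts with LY from the 16-cell stage (cell16_LY) in the same table, 3 blastocysts with 10 μM LY from the 2-cell stage (LY10) and 3 with DMSO in a separate table, and 4 of embryonic stem cells, which were not used here. The labels do not say which blastocysts shared a bull, a collection of ovaries or a culture drop. The p-values below therefore measure only the spread between the blastocysts of each fit. For the main comparison that fit also held the 2 cell16_LY blastocysts.

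Retinoic acid is made from vitamin A by retinaldehyde dehydrogenases, of which ALDH1A1 and ALDH1A3 are members, and binds nuclear receptors (RARA, RARB and RARG) that sit on DNA with a retinoid X receptor as partner. Without ligand the pair holds corepressors, and with ligand it turns on target genes, among them RARB itself and HOX genes. A day 8 blastocyst consists of an outer trophectoderm, which forms the placenta and pumps fluid into the cavity, and an inner cell mass that gives rise to epiblast and hypoblast. The deposited libraries are of whole blastocysts, so fewer cells of a lineage and less RNA per cell cannot be told apart in any value below.

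Between 11336091 and 17343140 reads lay on genes in the 4 libraries, fewer in cell2_LY (11336091 and 14890059) than in LY_DMSO (17343140 and 16883427). A normalized count is the number of reads on a gene, recovered from the deposited FPKM, divided by the library size that the FPKM implies and multiplied by the mean library size of the table. At this depth 3 reads, the limit that a count of 0 allows, were at most 3.28 normalized counts in these 4 libraries. On the first principal component (38.0% of the variance) cell2_LY_1 lay at 102, cell2_LY_2 at 32.3, LY_DMSO_1 at -10.9 and LY_DMSO_2 at -88.9. In cell2_LY_1 94.6% of the reads lay on protein-coding genes against 96.4% to 97.5% in the other 3. Reads on 5 Y-linked genes (ZRSR2Y, EIF1AY, ZFY, USP9Y and DDX3Y) were found in cell2_LY_1, cell2_LY_2 and LY_DMSO_1 and not in LY_DMSO_2. The trophectoderm keratins KRT8 and KRT18 were abundant in all 4 libraries (KRT8 at 74299 to 118500 normalized counts), as were the epiblast gene SALL4 (1264 to 3842) and the hypoblast gene GATA6 (3091 to 4836), while the hypoblast gene SOX17 had at most 0.99 normalized counts. Other markers of these lineages varied, with values given below. CDX2 and SOX2 in all 4 libraries and NANOG in cell2_LY_2 were far lower, while GATA3 and POU5F1 were abundant. Of the marker genes of other cells, those without a read in the 4 libraries were INHA and FOXL2 of cumulus cells, ZP4 and FIGLA of oocytes, PRM2, SMCP and PGK2 of sperm, CD3E and HBB of blood and POSTN of fibroblasts. The others had at least 1 read in the 4 libraries, namely 18 of 20 cumulus, 25 of 27 oocyte, 13 of 16 sperm, 12 of 14 blood and 11 of 12 fibroblast and endothelial genes. Summed over each marker list, the levels of the groups overlapped for cumulus (6758 and 3267 in cell2_LY, 3054 and 5042 in LY_DMSO), oocyte (549 and 630.3, 612 and 565), sperm (1038 and 1200.4, 1282 and 1088) and blood genes (301 and 558, 199 and 322), and were lower in cell2_LY for fibroblast and endothelial genes (1652 and 1781, 1959 and 2813). With 2 blastocysts in each group an exact permutation test of such a sum cannot go below p = 0.333, so the values stand without a test.

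The question of the comparison was which genes differ in the blastocyst when LY is present from the 2-cell stage in this second experiment. Blastocysts with LY had higher levels of the intermediate filament gene PRPH, the fatty acid desaturase FADS2 and the trophectoderm factors CDX2 and GATA2. They had lower levels of the retinoic acid receptor RARB, of DPPA3 and of MCM6, LARS1 and TCP1, which serve DNA replication, tRNA charging and protein folding. Of these genes only PRPH had an adjusted p under 0.05 by limma. Single genes do not stand for a function here. Estimates were above 0 for 15 of 38 tRNA synthetases and 19 of 42 chaperones. Of 14529 genes with a mean of at least 10 normalized counts over the 6 blastocysts of the table, 1265 (8.71%) were higher and 1211 (8.34%) lower in cell2_LY at the threshold used for calls, a limma p under 0.05 before adjustment together with a log2 difference above 1 in either direction. Before adjustment 3577 genes (24.6%) had a p under 0.05. With Benjamini-Hochberg correction for the 14529 genes, 2 (0.0138%) stayed under 0.05, PRPH and MYBPC3, and 150 genes shared the next adjusted p, 0.0711. The fit drew on the spread of the cell16_LY pair as well. That pair was closer (Spearman correlation 0.968) than the pairs of cell2_LY (0.935) and LY_DMSO (0.935). In a fit of the 4 compared blastocysts alone, 2756 genes had a limma p under 0.05 and 0 passed adjustment. In 53.7% of the tested genes the 2 blastocysts of each group did not overlap, so that a lack of overlap alone marked no gene. Single blastocysts weighed on these counts. Without cell2_LY_1, 698 genes were higher, 878 lower and 0 passed adjustment by limma, and without cell2_LY_2 the counts were 1526, 1878 and 875. Adjusted calls numbered 60 without LY_DMSO_1, 1 without LY_DMSO_2 and 0 without either cell16_LY blastocyst. On the log2(FPKM + 1) scale 720 genes were higher and 908 lower, so that 44.2% of calls were higher. Called genes are therefore given below as calls before adjustment, with 17.0% of all tested genes called in either direction as background. Counts over lists below stand beside 8.71% higher and 8.34% lower among all tested genes. In the most abundant of 5 groups of genes by level these shares were 3.03% and 16.5%.

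The median log2 difference over all tested genes was 0.0029, and it moved with the level of the gene. In 5 groups of genes of equal size, split by mean level, it was 0.21 in the lowest and 0.30 in the next, and it was -0.40 in the most abundant group, where 3.03% of genes were called higher and 16.5% lower. Median differences also ran from -0.27 among the shortest genes to 0.20 among the longest, in 5 groups by length. Without cell2_LY_1 the median of the most abundant group was -0.21, and without cell2_LY_2 it was -0.58. The part of this trend in the lists of abundant genes below was not tested beyond a normalization by cyclic loess. That method is meant to remove a trend with level, and its medians are given beside lists of abundant genes. How much of the trend remained after it was not examined. When the reads on genes were used as the library size, all values moved up by 0.24 at the median and 73.2% of the calls were higher, against 51.1%.

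**Figure D1:**
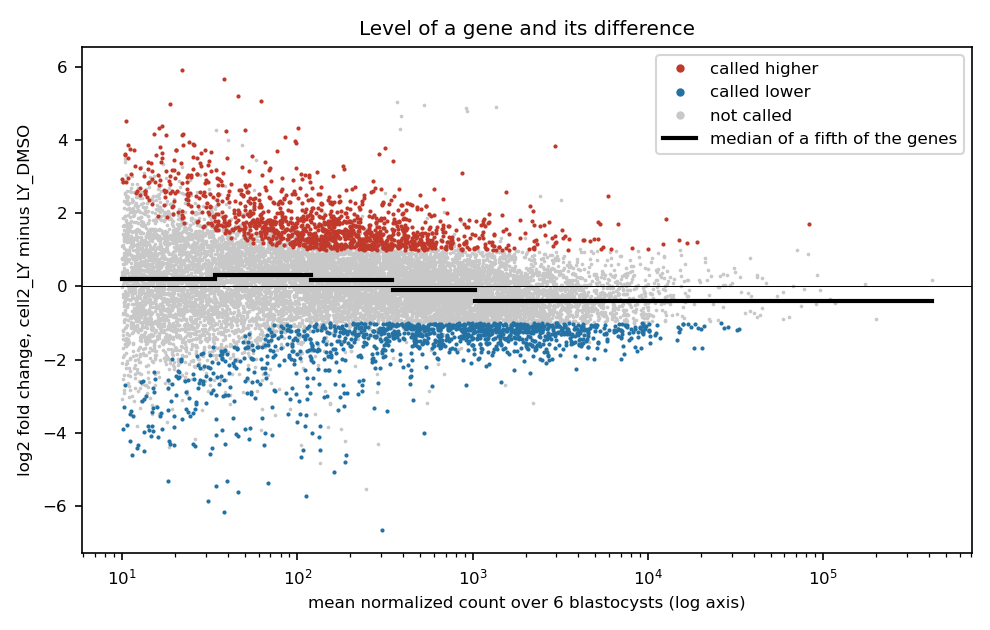
Log2 difference between cell2_LY and LY_DMSO blastocysts (vertical axis) against the mean normalized count of each of the 14529 tested genes over 6 blastocysts (horizontal log axis), with called genes coloured and the median of 5 groups of genes, split by level, as a line. Calls of lower genes are densest at the abundant end, where 16.5% of the most abundant group were lower and 3.03% higher.

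PRPH, which encodes peripherin, an intermediate filament protein best known from neurons, had the largest level among the leading genes that were higher. It was at 5937 and 5102 normalized counts in cell2_LY and 582 and 250.4 in LY_DMSO, a 14.4-fold difference (log2 difference 3.85, SE 0.38, adjusted p = 0.0395 by limma). Both LY blastocysts lay above both controls, and the cell16_LY blastocysts lay between the groups at 2921 and 2920.4 normalized counts. The gene lies on chromosome 5, 30519199 to 30522949, in the ARS-UCD2.0 annotation, whose positions the deposited table shares for 98.8% of its NCBI genes. MYBPC3, the cardiac form of myosin-binding protein C on chromosome 15, 77181629 to 77199362, was at 547 and 729 normalized counts in cell2_LY and 45.4 and 55.4 in LY_DMSO (log2 difference 3.63, SE 0.36, adjusted p = 0.0395 by limma). Its levels in the LY blastocysts did not overlap those of the controls, which the rule that chose the leading genes required of PRPH as well. The call of MYBPC3 before adjustment was kept under each of the 22 alternatives tried. Under several of these, such as voom, array weights or the 4 blastocysts alone, 0 genes passed adjustment by limma.

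The other genes with the smallest p among those that were higher had different roles. Brackets give the log2 difference, its SE and the adjusted p by limma. FADS2, the delta-6 desaturase of polyunsaturated fatty acid synthesis, was at 951 and 668 normalized counts in cell2_LY and 163 and 96.1 in LY_DMSO (2.66, SE 0.40, adjusted p = 0.0711). ALDH1A3, a retinaldehyde dehydrogenase that makes retinoic acid, was at 946 and 656 normalized counts in cell2_LY and 179.8 and 84.1 in LY_DMSO (2.67, SE 0.40, adjusted p = 0.0711). In each gene both LY blastocysts lay well above both controls, and the rule that chose the genes required a lack of overlap. The basement membrane linked genes LAD1 (ladinin, 307 and 289 against 55.6 and 23.1, 3.02, SE 0.49, adjusted p = 0.0711) and ITGA3 (integrin alpha 3, a laminin receptor, 722 and 500.1 against 135 and 102, 2.35, SE 0.38, adjusted p = 0.0711) also rose. ALS2CL, a regulator of small GTPases in endosomes, was at 691 and 434 normalized counts in cell2_LY and 86.2 and 61.9 in LY_DMSO (2.89, SE 0.39, adjusted p = 0.0711). The immune genes on this list were TNFSF9, the ligand of the costimulatory receptor 4-1BB (120.1 and 173 against 19.5 and 16.6, 2.93, SE 0.47, adjusted p = 0.0711), IL15RA, the alpha chain of the interleukin 15 receptor (263 and 152 against 21.3 and 6.47, 3.96, SE 0.65, adjusted p = 0.0711), and IRF5, an interferon regulatory factor (458 and 340.3 against 92.7 and 50.8, 2.51, SE 0.42, adjusted p = 0.0711). None of these 8 genes lost its call under an alternative, and none passed adjustment.

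Among the genes that fell, RARB had one of the largest differences and belongs to the retinoid genes described below. GFPT2, a rate-limiting enzyme of hexosamine synthesis on chromosome 7, 864977 to 910376, was at 69.9 and 42.4 normalized counts in cell2_LY and 597 and 580.3 in LY_DMSO (-3.41, SE 0.43, adjusted p = 0.0711), and the zinc importer SLC39A10 was at 141 and 112 normalized counts in cell2_LY and 579 and 584 in LY_DMSO (-2.20, SE 0.30, adjusted p = 0.0711). Both controls were close to each other and far above both LY blastocysts in each gene, where the rule of choice required a lack of overlap. Genes of chromosome segregation and replication were CKAP2, a spindle protein (2421 and 3557 against 10965 and 12128, -1.97, SE 0.28, adjusted p = 0.0711), STAG2, a subunit of cohesin on the X chromosome (1587 and 1343 against 5030.5 and 4562, -1.71, SE 0.25, adjusted p = 0.0711), and MCM6, a subunit of the replicative helicase (1925 and 2299 against 6616 and 6659.9, -1.66, SE 0.24, adjusted p = 0.0711). The RNA genes ELP2, of the elongator complex that modifies tRNA (218 and 273 against 1053 and 873, -1.97, SE 0.29, adjusted p = 0.0711), and PUM3, a nucleolar RNA-binding protein (618 and 770.4 against 2129 and 2859, -1.84, SE 0.27, adjusted p = 0.0711), had the same pattern. GOT1, the cytosolic aspartate aminotransferase (747 and 907 against 2288 and 3444, -1.77, SE 0.28, adjusted p = 0.0711), and BRDT, a bromodomain protein of the germline (204 and 178 against 813 and 728, -2.01, SE 0.30, adjusted p = 0.0711), complete the genes with the smallest p. Their calls held under every alternative in which they were tested, 22 for each but the X-linked STAG2, which had 21, with SE between 0.24 and 0.48 on the log2 scale.

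**Figure D2:**
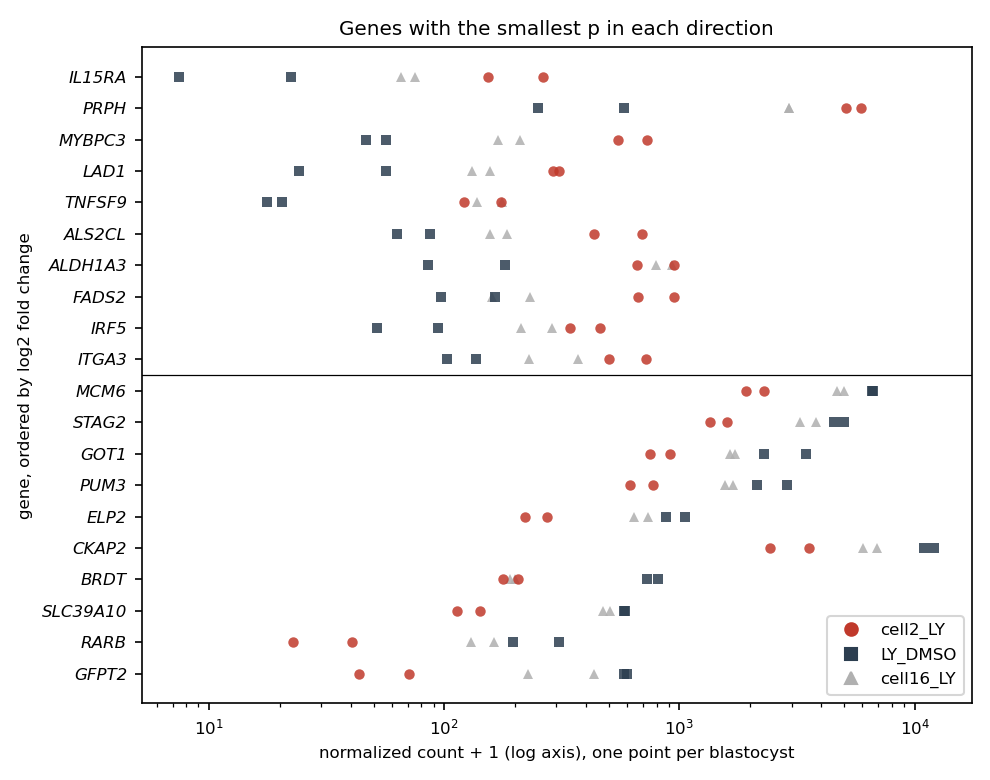
Normalized count plus 1 (horizontal log axis, 1 point per blastocyst) of the 10 genes with the smallest p in each direction, those higher in cell2_LY above the line and those lower below it, with the cell16_LY blastocysts in grey. In every gene both cell2_LY points lie on the same side of both LY_DMSO points, as the rule that chose the genes required.

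Genes without an established symbol held the same kind of differences. LOC514189, an uncharacterized gene, was at 1813 and 1358 normalized counts in cell2_LY and 5686 and 6048 in LY_DMSO (-1.90, SE 0.25, adjusted p = 0.0711). LOC112446470, annotated as like the RNA helicase DDX18, was at 26.2 and 35.5 against 183 and 213 (-2.65, SE 0.42, adjusted p = 0.0711), and LOC112445002, annotated as the elongation factor HIV Tat-specific factor 1 and lying on the X chromosome, was at 119 and 96.7 against 516 and 374 (-2.02, SE 0.34, adjusted p = 0.0711). Of the genes that rose, LOC132345462 was at 215 and 176 against 38.0 and 33.3 (2.42, SE 0.45, adjusted p = 0.0711) and LOC512541, annotated as like acyl-CoA thioesterase 4, was at 1822 and 2214 against 887 and 512 (1.57, SE 0.32, adjusted p = 0.0716). LOC132344461, on the Y chromosome and annotated as a probable pyrophosphatase, was at 253 and 208 against 42.6 and 16.6 (3.06, SE 0.56, adjusted p = 0.0711). Reads on this gene were present in LY_DMSO_2, which had 0 reads on 5 other Y-linked genes, and copies of the gene elsewhere in the genome were not examined.

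Retinoid genes differed in both directions. RARB, the retinoic acid receptor whose own promoter is a classic target of the receptors, was at 21.8 and 39.5 normalized counts in cell2_LY and 195 and 307 in LY_DMSO (log2 difference -3.01, SE 0.48, adjusted p = 0.0711). It lies on chromosome 27, 40196705 to 40792265, and both LY blastocysts were below every other blastocyst of the table, the cell16_LY blastocysts being at 162 and 128 normalized counts. RARG, the target of the compound, was too low to test, with 2 and 2 reads in cell2_LY and 4 and 0 in LY_DMSO, which allows no comparison. RARA was at 45.9 and 27.6 against 16.7 and 21.3 normalized counts (0.88, SE 0.70, adjusted p = 0.456) and RXRA at 51.3 and 47.3 against 13.9 and 15.7 (1.67, SE 0.73, adjusted p = 0.203), and neither was called. RXRB, a retinoid X receptor, was at 225 and 126 normalized counts in cell2_LY and 63.0 and 39.7 in LY_DMSO (1.73, SE 0.54, adjusted p = 0.113). PPARD, a fatty acid receptor that also pairs with retinoid X receptors, was at 290.5 and 110.5 against 33.4 and 65.6 (1.91, SE 0.58, adjusted p = 0.107). On the FPKM scale, which divides by gene length, the receptors ranged from 0.0259 to 0.0287 for RARG over 0.313 and 0.519 for RARA and 0.379 and 0.685 for RARB to 2.78 and 4.95 for RXRB in cell2_LY, and RARB was at 3.38 and 5.32 in LY_DMSO. Of 15 listed receptors and corepressors, 12 were tested, 2 were called higher and 1 lower, with a median log2 difference of 0.54. RXRB had a log2 difference of 1.32 without cell2_LY_1 (not called) and 1.41 without LY_DMSO_2 (not called). PPARD was at 1.22 without cell2_LY_1 (not called) and 1.44 without LY_DMSO_1 (not called).

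The enzymes and targets of the pathway were mostly low in these embryos. Of 19 genes of retinoid synthesis, binding and breakdown, 11 were tested, and ALDH1A3 and ALDH1A1 were called in opposite directions. ALDH1A1, the cytosolic retinaldehyde dehydrogenase, had 0 and 3 reads in cell2_LY, and in normalized counts stood at 0 and 2.96 against 21.3 and 68.4. Over the group totals its level was 28.9 times higher in LY_DMSO (95% counting interval 9.59 to 142), and the fitted log2 difference was -4.31 (SE 1.25, adjusted p = 0.102). Among 12 tested target genes of 23 listed, HOXB2 (15.3 and 22.7 against 2.78 and 0.924, 2.86, SE 1.09, adjusted p = 0.16) and HOXB4 (36.0 and 88.8 against 8.34 and 22.2, 1.97, SE 0.78, adjusted p = 0.17) were called higher and RARB lower. Over the 14 tested HOX genes of 39, 2 were called higher and HOXA13 was lower (1.09 and 0.986 against 44.5 and 10.2, -3.47, SE 1.19, adjusted p = 0.133), with a median of 0.51. HOXC13 (39.3 and 49.3 against 30.6 and 12, 1.15, SE 0.76, adjusted p = 0.373) and HOXD8 (29.5 and 66.1 against 18.5 and 56.4, 0.43, SE 0.71, adjusted p = 0.733) were not called. HOXA13 rested on 2 reads in cell2_LY, and its level over the group totals was 26.3 times higher in LY_DMSO (95% counting interval 6.97 to 222.5). HOXB2 had a log2 difference of 2.38 without LY_DMSO_2 (not called), 2.86 without cell16_LY_1 (not called) and 2.86 without cell16_LY_2 (not called). HOXB4 was at 1.33 without cell2_LY_2 (not called), 1.31 without LY_DMSO_1 (not called), 1.97 without cell16_LY_1 (not called) and 1.97 without cell16_LY_2 (not called). HOXA13 stood at -2.45 without LY_DMSO_1 (not called).

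**Figure D3:**
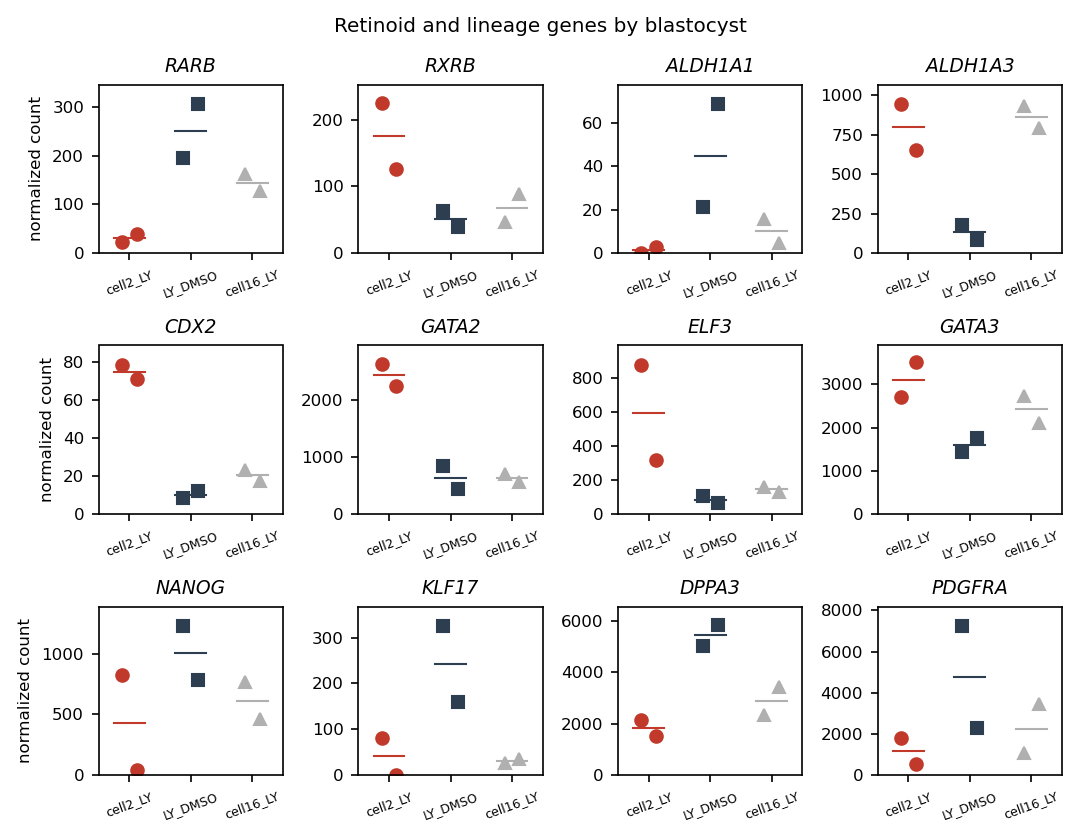
Normalized count (linear axes from 0) of 12 retinoid and lineage genes in each blastocyst of cell2_LY, LY_DMSO and cell16_LY, with the group means as lines. RARB is lowest and CDX2 and GATA2 are highest in both cell2_LY blastocysts, while NANOG differs more between the 2 cell2_LY blastocysts than between the group means.

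Of 20 tested trophectoderm transcription factors, 5 were higher and 1 lower. CDX2, which maintains the trophectoderm, was at 78.6 and 71.0 normalized counts in cell2_LY and 8.34 and 12 in LY_DMSO (2.78, SE 0.67, adjusted p = 0.0811), and GATA2, an activator of trophoblast genes, was at 2637 and 2251 normalized counts in cell2_LY and 839 and 447 in LY_DMSO (1.99, SE 0.34, adjusted p = 0.0711). Neither gene overlapped between the groups, and neither lost its call under an alternative. ELF3, an epithelial ETS factor, was at 878 and 316 normalized counts in cell2_LY and 105 and 62.8 in LY_DMSO (2.68, SE 0.52, adjusted p = 0.0711), and OVOL1, a zinc finger regulator of trophoblast differentiation, was at 361 and 211 normalized counts in cell2_LY and 99.1 and 42.5 in LY_DMSO (2.07, SE 0.52, adjusted p = 0.0834). GATA3 was at 2708 and 3507 against 1438 and 1769 (0.95, SE 0.28, adjusted p = 0.102) and fell short of the size threshold. TFAP2C, a factor of early trophoblast and germ cells, was at 2112 and 2185 against 1749 and 1722 (0.31, SE 0.24, adjusted p = 0.455) and was not called. The factor that was lower was ESRRB (375 and 375 against 541 and 1700.3, -1.35, SE 0.48, adjusted p = 0.145). The 5 higher factors were 25% of the list, against 8.71% of all tested genes, and the median log2 difference of the list was 0.85 (1.14 under cyclic loess) against 0.0029 over all genes. Summed levels of cumulus markers, whose list includes steroid enzymes that trophoblast also makes, overlapped between the groups, but the median of its 8 tested members was 1.07, with 6 of them above 0 and 1 called higher. The part of these cells in the values above was not tested. ESRRB had a log2 difference of -1.35 without cell2_LY_1 (not called), -1.35 without cell2_LY_2 (not called), -2.18 without LY_DMSO_1 and -0.53 without LY_DMSO_2 (not called).

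Secreted and structural products of trophoblast were called in 1 direction. PAG11, a pregnancy-associated glycoprotein of ruminant trophoblast, was at 77.5 and 33.5 normalized counts in cell2_LY and 11.1 and 8.32 in LY_DMSO (2.29, SE 0.56, adjusted p = 0.0814), and TKDP1, a trophoblast Kunitz domain protein, was at 126 and 78.9 normalized counts in cell2_LY and 18.5 and 36.0 in LY_DMSO (1.90, SE 0.50, adjusted p = 0.0879). Both remained low in comparison with the cell16_LY blastocysts, at 446 and 398 and 283 and 294 normalized counts. KRT19, a keratin of trophectoderm, was at 13152 and 14664 against 7651 and 1932 (1.85, SE 0.56, adjusted p = 0.106), and FURIN, a proprotein convertase, was at 947 and 355 against 115 and 124 (2.27, SE 0.48, adjusted p = 0.0743). In all, 5 of 14 tested members (35.7%) were higher and 0 lower, against 8.71% and 8.34% of all tested genes, with a median of 0.53. PAG genes form a large family of near-identical copies, so the reads of PAG11 may be shared with other members. KRT19 had a log2 difference of 1.77 without cell2_LY_2 (not called), 2.84 without LY_DMSO_1 and 0.86 without LY_DMSO_2 (not called).

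Of the epiblast and pluripotency genes, those that fell included DPPA family members and KLF17 and none of the 3 core factors POU5F1, SOX2 and NANOG. DPPA3, a maternal factor that protects methylation in the zygote, was at 2139 and 1516 normalized counts in cell2_LY and 5037 and 5859 in LY_DMSO (-1.59, SE 0.30, adjusted p = 0.0711), with both LY blastocysts far below both controls. DPPA4 was at 306 and 358 normalized counts in cell2_LY and 1043 and 630.2 in LY_DMSO (-1.29, SE 0.35, adjusted p = 0.0936) and its chromatin partner DPPA2 at 438 and 2269 normalized counts in cell2_LY and 3944 and 3566 in LY_DMSO (-1.91, SE 0.62, adjusted p = 0.119). KLF17, a factor of the naive epiblast in human, was at 81.9 and 0 against 324 and 159 (-4.65, SE 1.66, adjusted p = 0.144). POU5F1 was at 6006 and 4840.2 normalized counts in cell2_LY and 6519.5 and 3959.7 in LY_DMSO (0.09, SE 0.31, adjusted p = 0.888), SOX2 at 66.6 and 36.5 against 73.2 and 32.3 (0.02, SE 0.70, adjusted p = 0.989) and NANOG at 823 and 41.4 against 1228 and 781 (-2.39, SE 1.10, adjusted p = 0.22). The NANOG values differed by far more between the LY blastocysts than between the controls, and the 3 core factors were not called. KLF2, a naive pluripotency factor, was the exception that was higher (131 and 39.5 against 30.6 and 13.9, 1.75, SE 0.76, adjusted p = 0.199). Over 22 tested members, 1 was higher and 6 (27.3%) were lower, against 8.71% and 8.34% of all tested genes, with a median of -0.66. KLF17 had a log2 difference of -7.83 without cell2_LY_1, -1.46 without cell2_LY_2 (not called) and -4.13 without LY_DMSO_1 (not called). DPPA4 was at -0.93 without LY_DMSO_1 (not called). DPPA2 stood at -0.72 without cell2_LY_1 (not called), -3.10 without cell2_LY_2 and -1.84 without LY_DMSO_1 (not called). KLF2 had a log2 difference of 0.90 without cell2_LY_1 (not called), 1.21 without LY_DMSO_2 (not called), 1.75 without cell16_LY_1 (not called) and 1.75 without cell16_LY_2 (not called).

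Hypoblast genes gave 1 call among 21 tested, PDGFRA, the platelet-derived growth factor receptor of the hypoblast, at 1814 and 562 normalized counts in cell2_LY and 7248 and 2282 in LY_DMSO (-2.01, SE 0.74, adjusted p = 0.153). GATA6 was at 4669.5 and 4836 against 3091 and 3225 (0.59, SE 0.26, adjusted p = 0.212) and was not called. The median of the list was -0.08 (0.11 under cyclic loess). It was smaller in size than 0.18, the SD between replicates of the mean log2 level of the list. NID1, a basement membrane glycoprotein, was at 1649 and 181 against 1375 and 1436 (-1.36, SE 0.87, adjusted p = 0.36), and 4 other basement membrane genes of 22 tested were higher, ITGA3 among them. Genes of embryonic genome activation were lower in several cases. DUXA and ARGFX, PRD-like homeobox genes that are expressed at genome activation, were at 27.3 and 0.986 against 318 and 44.4 (-4.00, SE 1.52, adjusted p = 0.16) and 60.1 and 8.88 against 104 and 336 (-2.94, SE 1.15, adjusted p = 0.168), and LOC538435, annotated as heterogeneous nuclear ribonucleoprotein A2/B1, was at 31.7 and 72.0 against 165 and 814 (-2.91, SE 0.83, adjusted p = 0.1). For DUXA, ARGFX and LOC538435 the cell2_LY and LY_DMSO blastocysts did not overlap, but levels within a group differed several-fold. The annotation of LOC538435 does not itself tie it to genome activation. Of 9 tested members, 4 (44.4%) were lower and 1 higher, where 8.34% of all tested genes were lower and 8.71% higher. This list was written with earlier results of these data known, and KLF17 is counted in the epiblast list too. The share is therefore a description and no test of the list. Germline genes had the lowest median of the lists, -1.20, with 7 of 24 (29.2%) lower and 0 higher. Beside BRDT these were, for example, ASZ1, a piRNA pathway protein (543 and 443 against 1369.5 and 1078, -1.31, SE 0.28, adjusted p = 0.0743), TEX11, an X-linked meiosis gene (5.46 and 8.88 against 31.5 and 589.6, -4.12, SE 1.29, adjusted p = 0.114), and KIT, the stem cell factor receptor (950.1 and 166 against 1764 and 1793, -2.16, SE 0.67, adjusted p = 0.111). PDGFRA had a log2 difference of -1.16 without cell2_LY_2 (not called) and -1.18 without LY_DMSO_1 (not called). DUXA was at -2.09 without cell2_LY_2 (not called) and -2.60 without LY_DMSO_1 (not called). ARGFX stood at -1.62 without cell2_LY_2 (not called) and -2.09 without LY_DMSO_2 (not called). LOC538435 had a log2 difference of -2.33 without cell2_LY_1 (not called) and -1.76 without LY_DMSO_2 (not called). TEX11 was at -3.81 without cell2_LY_1 (not called), -6.21 without LY_DMSO_1 and -2.02 without LY_DMSO_2 (not called). KIT stood at -3.42 without cell2_LY_1 and -0.90 without cell2_LY_2 (not called).

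Cavity formation depends on ion pumping and on sealed junctions. Of 26 tested genes of this list 6 (23.1%) were higher and 1 was lower, against 8.71% and 8.34% of all tested genes. FXYD4, a regulator of the sodium pump, was at 4897 and 6561 normalized counts in cell2_LY and 2763 and 2024 in LY_DMSO (1.26, SE 0.34, adjusted p = 0.0929), and SLC9A3, an apical sodium/proton exchanger, was at 162 and 198 normalized counts in cell2_LY and 48.2 and 18.5 in LY_DMSO (2.54, SE 0.61, adjusted p = 0.0811). Both were higher in both LY blastocysts. CGN, the tight junction protein cingulin, was at 2782 and 2233 against 1294 and 1016 (1.12, SE 0.28, adjusted p = 0.0833). CDH1, the E-cadherin of adherens junctions, was at 1421 and 2977 normalized counts in cell2_LY and 4768 and 4529 in LY_DMSO (-1.18, SE 0.35, adjusted p = 0.105), and its call rested on cell2_LY_1. Over the list the median was 0.08. TAGLN, the actin-binding protein transgelin, was at 174 and 54.3 against 0 and 25 (4.27, SE 1.55, adjusted p = 0.149), with 0 reads in LY_DMSO_1, so that its fitted difference depends on the pseudocount. Intermediate filament and contractile genes gave 8 (20.5%) higher and 2 (5.13%) lower of 39 tested, against 8.71% and 8.34% of all tested genes. PRPH and TAGLN were among the higher. CGN had a log2 difference of 0.96 without cell2_LY_1 (not called) and 0.94 without LY_DMSO_2 (not called). CDH1 was at -0.64 without cell2_LY_1 (not called). TAGLN stood at 3.44 without cell2_LY_1 (not called), 1.92 without LY_DMSO_1 (not called) and 6.62 without LY_DMSO_2.

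Genes of carbon metabolism are mostly abundant in the blastocyst. In glycolysis, 3 of 24 genes (12.5%) were higher and 3 (12.5%) lower, against 8.71% and 8.34% of all tested genes. The median was -0.42 (-0.15 under cyclic loess). The most abundant level group, where 3.03% of genes were higher and 16.5% lower, held 14 of the 24. BPGM, which makes 2,3-bisphosphoglycerate, was at 9.83 and 16.8 against 86.2 and 120.1 (-2.89, SE 0.59, adjusted p = 0.0716), and LDHB, the heart form of lactate dehydrogenase, was at 4305 and 5638 normalized counts in cell2_LY and 10936 and 13219 in LY_DMSO (-1.29, SE 0.28, adjusted p = 0.0768). TPI1, triosephosphate isomerase, was at 1349 and 514 normalized counts in cell2_LY and 281 and 425 in LY_DMSO (1.27, SE 0.51, adjusted p = 0.175). PGK1 (3931 and 4739.5 against 6937 and 5828, -0.56, SE 0.29, adjusted p = 0.264) and LDHA (2558 and 4942 against 3829 and 10155, -0.81, SE 0.56, adjusted p = 0.4) were not called. The same level group held 6 of 10 genes of the pentose phosphate pathway. Of these 10, 3 (30%) were lower and 0 higher, with a median of -0.49 (-0.38 under cyclic loess). The lower genes included RPIA, ribose-5-phosphate isomerase, at 1659 and 1564 against 3866 and 4412 (-1.36, SE 0.24, adjusted p = 0.0711), and PRPS1, the X-linked enzyme of phosphoribosyl pyrophosphate synthesis, at 633 and 1336 against 2618 and 5331 (-2.02, SE 0.43, adjusted p = 0.0747). PGD, the second dehydrogenase of the pathway, was at 5391 and 4569.9 against 9321 and 4402 (-0.37, SE 0.41, adjusted p = 0.611) and was not called. TPI1 had a log2 difference of 0.57 without cell2_LY_1 (not called), 1.96 without cell2_LY_2 and 0.97 without LY_DMSO_1 (not called).

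Of the TCA cycle and its entry enzymes, 6 of 26 genes were lower (23.1%, against 16.5% in the most abundant level group, to which 21 of the 26 belong) and 2 were higher. IDH1, the cytosolic isocitrate dehydrogenase, was at 5458 and 3783 normalized counts in cell2_LY and 9700.5 and 12415 in LY_DMSO (-1.27, SE 0.30, adjusted p = 0.0782), and SUCLA2, a subunit of succinyl-CoA synthetase, was at 1147 and 3522 normalized counts in cell2_LY and 6389.8 and 6318 in LY_DMSO (-1.66, SE 0.49, adjusted p = 0.104). The genes that rose were PC, pyruvate carboxylase, which refills the cycle (1880.5 and 1435 against 616 and 359, 1.80, SE 0.33, adjusted p = 0.0711), and OGDH, the dehydrogenase subunit of the oxoglutarate dehydrogenase complex (305 and 182 against 70.4 and 52.7, 1.94, SE 0.45, adjusted p = 0.0782). The median of the list was -0.73, and it was -0.35 under cyclic loess. Breakdown of branched-chain amino acids gave 9 of 28 genes lower (32.1%, against 8.34% of all tested genes), with a median of -0.59 (-0.48 under cyclic loess). An example was HSD17B10 of isoleucine breakdown on the X chromosome (1931 and 2525 against 6414 and 6506, -1.55, SE 0.26, adjusted p = 0.0711). ACAD8, the isobutyryl-CoA dehydrogenase of valine breakdown, was the 1 gene that was higher (339 and 382 against 98.2 and 83.2, 1.98, SE 0.34, adjusted p = 0.0711). SUCLA2 had a log2 difference of -0.85 without cell2_LY_1 (not called).

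Nuclear genes of oxidative phosphorylation had estimates below 0 in 69 of 72 cases, but 9 (12.5%) passed the threshold as lower and 0 as higher. UQCRC1, a core subunit of complex III, was at 1104 and 1995 normalized counts in cell2_LY and 5029 and 3877 in LY_DMSO (-1.57, SE 0.34, adjusted p = 0.0743). Of these genes, 68 belong to the most abundant level group, whose own median was -0.40, and the list's median of -0.49 was -0.10 under cyclic loess. Among the 13 mitochondrial protein genes ND4L (593 and 1538 against 3394 and 3219.5, -1.79, SE 0.41, adjusted p = 0.0782) was lower, and the median of -0.25 turned to 0.24 under cyclic loess and to 0.11 without cell2_LY_1. Mitochondrial ribosomal proteins gave 13 lower and 2 higher of 77, with a median of -0.56 (-0.26 under cyclic loess). The lower genes were 16.9% of the list, near the 16.5% of the most abundant level group, to which 53 of the 77 belong. MRPL2 was at 402 and 755 normalized counts in cell2_LY and 1739 and 1577 in LY_DMSO (-1.59, SE 0.33, adjusted p = 0.0738), MRPS35 at 366 and 721 against 1560.4 and 1834 (-1.72, SE 0.34, adjusted p = 0.0716) and MRPS31 at 384 and 612 against 1233 and 2069 (-1.72, SE 0.35, adjusted p = 0.0716). ND4L had a log2 difference of -1.10 without cell2_LY_1.

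Cytosolic ribosomal proteins, also abundant, lay on the other side of 0. Their median was 0.25 over 75 genes, 62 of which had estimates above 0, and it was 0.71 under cyclic loess. Calls were made for RPS2 (27268 and 19443 against 14787 and 6895, 1.19, SE 0.39, adjusted p = 0.123) and RPL13A (14490 and 12968 against 9417 and 4909, 1.01, SE 0.37, adjusted p = 0.153), both genes with many processed copies in the genome. Aminoacyl-tRNA synthetases, which charge tRNAs with their amino acids, gave 8 (21.1%) lower and 2 (5.26%) higher of 38 tested. Over all tested genes 8.34% were lower and 8.71% higher. The most abundant level group, with 16.5% lower, held 17 of the 38. The median of the list was -0.29, and it was -0.14 under cyclic loess and 0.0044 without LY_DMSO_1. LARS1 for leucine was at 1212 and 1386 normalized counts in cell2_LY and 3918 and 3285 in LY_DMSO (-1.47, SE 0.25, adjusted p = 0.0711) and FARSB for phenylalanine at 941 and 1656 against 4628 and 4606 (-1.89, SE 0.33, adjusted p = 0.0711). The LY blastocysts lay below the controls in both of these enzymes. RPS2 had a log2 difference of 0.95 without cell2_LY_1 (not called) and 0.64 without LY_DMSO_2 (not called). RPL13A was at 0.93 without cell2_LY_1 (not called), 1.09 without cell2_LY_2 (not called) and 0.54 without LY_DMSO_2 (not called).

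In the integrated stress response, which ATF4 directs when amino acids run short, 4 of 27 genes (14.8%) were lower and 2 (7.41%) higher. Over all tested genes the shares were 8.34% and 8.71%. CHAC1, a glutathione-degrading enzyme, was at 133 and 9.86 normalized counts in cell2_LY and 379 and 416 in LY_DMSO (-3.38, SE 0.99, adjusted p = 0.104). ASNS, asparagine synthetase, was at 2102 and 1785 normalized counts in cell2_LY and 4773 and 3867 in LY_DMSO (-1.15, SE 0.38, adjusted p = 0.123), and SLC3A2, the heavy chain of amino acid exchangers, was at 1291 and 1266 normalized counts in cell2_LY and 2929 and 4473 in LY_DMSO (-1.50, SE 0.35, adjusted p = 0.0782). These 3 genes lay below the controls in both LY blastocysts, while 15 of the 27 estimates of the list were above 0 and its median was 0.06 (-0.26 without cell2_LY_1 or LY_DMSO_2). ATF3 (708 and 889 against 386 and 304, 1.21, SE 0.32, adjusted p = 0.092) and XBP1 (3186 and 2585 against 1929 and 411, 1.69, SE 0.59, adjusted p = 0.14), stress transcription factors of which ATF3 is itself a target of ATF4, were the genes that rose. Among chaperones, the chaperonin subunits TCP1 (845 and 1932 against 6151 and 6045, -2.25, SE 0.37, adjusted p = 0.0711) and CCT7 (1883 and 3559.8 against 7631 and 7200.5, -1.52, SE 0.32, adjusted p = 0.0743) fell, and the heat-inducible HSPA1A (2578 and 2168 against 405 and 1095, 1.83, SE 0.46, adjusted p = 0.0838) and its cochaperone BAG3 (398 and 387 against 93.6 and 179, 1.59, SE 0.47, adjusted p = 0.104) rose. Of 42 chaperone genes 3 (7.14%) were higher and 10 (23.8%) lower, with a median of -0.30 (-0.0397 under cyclic loess). The most abundant level group held 30 of the 42, and in that group 3.03% of genes were higher and 16.5% lower. CHAC1 had a log2 difference of -5.20 without cell2_LY_1 and -1.57 without cell2_LY_2. ASNS was at -1.03 without cell2_LY_2 (not called) and -1.0 without LY_DMSO_1 (not called). XBP1 stood at 1.54 without cell2_LY_1 (not called), 1.84 without cell2_LY_2 (not called), 2.80 without LY_DMSO_1 and 0.57 without LY_DMSO_2 (not called). HSPA1A had a log2 difference of 1.11 without LY_DMSO_1. BAG3 was at 1.12 without LY_DMSO_1 (not called).

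More genes of replication and mitosis were called lower than higher, which also held for abundant genes in general. In the most abundant level group 16.5% of genes were lower and 3.03% higher, against 8.34% and 8.71% of all tested genes. That group held 19 of the 44 replication genes and 30 of the 42 mitosis genes below. Of 44 replication genes 10 (22.7%) were lower and 1, the licensing factor CDT1 (199.8 and 19.7 against 11.1 and 9.24, 2.53, SE 1.04, adjusted p = 0.177), was higher, with a median of -0.69 (-0.49 under cyclic loess). Beside MCM6 these were, for example, ORC3 of the origin recognition complex (442 and 490.2 against 1217 and 1358, -1.46, SE 0.25, adjusted p = 0.0711) and PRIM1, the catalytic primase subunit (416 and 539.5 against 1428 and 1250.3, -1.49, SE 0.27, adjusted p = 0.0711). Of 42 mitosis genes 9 (21.4%) were lower and 1 higher, with a median of -0.70 (-0.39 under cyclic loess). PLK1, a kinase that drives entry into mitosis, was at 25.1 and 118 normalized counts in cell2_LY and 232 and 329 in LY_DMSO (-2.31, SE 0.66, adjusted p = 0.0989). KIF20A, a kinesin of cytokinesis, was at 1576 and 2392 normalized counts in cell2_LY and 5185 and 6116 in LY_DMSO (-1.54, SE 0.28, adjusted p = 0.0711), and NUF2 of the kinetochore was at 811 and 1361 against 3189 and 3668 (-1.70, SE 0.30, adjusted p = 0.0711). The gene that was higher was MYBL2, a transcription factor of cell cycle genes (1615 and 826 against 414 and 408, 1.49, SE 0.35, adjusted p = 0.0793), and CDC20 (954 and 1678 against 2583 and 1772, -0.76, SE 0.33, adjusted p = 0.205) was not called. CDT1 had a log2 difference of 0.90 without cell2_LY_1 (not called), 4.17 without cell2_LY_2, 2.66 without LY_DMSO_1 (not called), 2.41 without LY_DMSO_2 (not called), 2.53 without cell16_LY_1 (not called) and 2.53 without cell16_LY_2 (not called). PLK1 was at -1.21 without cell2_LY_1.

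The cell cycle inhibitor CDKN1A, a target of p53, was at 305 and 383 normalized counts in cell2_LY and 86.2 and 137 in LY_DMSO (1.64, SE 0.38, adjusted p = 0.0782), with both LY blastocysts above both controls. Of 30 p53 targets, 5 were higher (16.7%) and 0 lower, against 8.71% and 8.34% of all tested genes. Their median was 0.45, and it was -0.13 without cell2_LY_2. Further members that rose were XPC of DNA damage recognition (969.7 and 951 against 468 and 344, 1.26, SE 0.29, adjusted p = 0.0782) and TP53I3, an oxidoreductase (177 and 223 against 75.1 and 71.2, 1.43, SE 0.36, adjusted p = 0.0838). In the apoptosis machinery 2 were higher and 3 lower of 30, among them the survival gene BCL2L2 (166 and 163 against 33.4 and 20.3, 2.61, SE 0.53, adjusted p = 0.0716) as higher and BCL2L14 (129 and 95.7 against 405 and 461, -1.95, SE 0.35, adjusted p = 0.0711) as lower.

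Lipid genes were among the lists with the most genes higher. Of 37 fatty acid and lipid droplet genes, 9 (24.3%) were higher and 2 lower, against 8.71% and 8.34% of all tested genes. With FADS2 rose FADS1, the delta-5 desaturase (3955 and 6879 against 2317 and 1366, 1.55, SE 0.36, adjusted p = 0.0782), ACSS2, which makes acetyl-CoA from acetate (178 and 172 against 25.9 and 1.85, 4.33, SE 1.00, adjusted p = 0.0782), and AGPAT2, an acyltransferase of triglyceride synthesis (149.6 and 72.0 against 15.8 and 18.5, 2.54, SE 0.59, adjusted p = 0.0782). PLIN2, the coat protein of lipid droplets, was at 1414 and 1029 normalized counts in cell2_LY and 3578 and 6441 in LY_DMSO (-1.99, SE 0.33, adjusted p = 0.0711), and FABP3, a fatty acid binding protein, was at 3199.7 and 5265 normalized counts in cell2_LY and 13870 and 14056 in LY_DMSO (-1.77, SE 0.35, adjusted p = 0.0716). Of 32 cholesterol genes 8 (25%) were higher, such as the regulator SREBF2 (591 and 391 against 179 and 124, 1.68, SE 0.39, adjusted p = 0.0782) and mevalonate decarboxylase MVD (881 and 622 against 297 and 346, 1.21, SE 0.34, adjusted p = 0.0988). FDFT1, squalene synthase (2264 and 6719 against 9044 and 9025, -1.21, SE 0.46, adjusted p = 0.16), and SOAT1, which esterifies cholesterol (8328 and 12923 against 23292 and 19046, -1.02, SE 0.31, adjusted p = 0.107), were lower. ACSS2 had a log2 difference of 2.71 without LY_DMSO_2. MVD was at 0.95 without cell2_LY_1 (not called). FDFT1 stood at -0.43 without cell2_LY_1 (not called), -2.00 without cell2_LY_2, -1.21 without LY_DMSO_1 (not called) and -1.21 without LY_DMSO_2 (not called). SOAT1 had a log2 difference of -0.70 without cell2_LY_1 (not called) and -0.88 without LY_DMSO_1 (not called).

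Antioxidant genes were called in both directions, 8 (18.6%) higher and 6 (14.0%) lower of 43, against 8.71% and 8.34% of all tested genes. HMOX1, heme oxygenase, was at 281 and 295 normalized counts in cell2_LY and 95.4 and 63.8 in LY_DMSO (1.87, SE 0.39, adjusted p = 0.0738), SRXN1, sulfiredoxin, at 227 and 75 against 3.71 and 21.3 (3.69, SE 0.87, adjusted p = 0.0797) and GSTP1, a glutathione transferase, at 57.9 and 45.4 against 8.34 and 4.62 (2.85, SE 0.76, adjusted p = 0.0917). In each of the 3, both LY blastocysts lay above both controls. Lower were the glutathione transferases GSTA3 (5.46 and 9.86 against 367 and 17.6, -3.30, SE 1.28, adjusted p = 0.165) and MGST3 (216 and 203 against 555 and 502, -1.33, SE 0.33, adjusted p = 0.0834) and the peroxiredoxins PRDX4 (797 and 1187 against 2192 and 4260.1, -1.65, SE 0.38, adjusted p = 0.0782) and PRDX6 (3561 and 8900.1 against 12816 and 17313, -1.40, SE 0.46, adjusted p = 0.12), together with CHAC1 and GSTM3. GSTM3, another glutathione transferase, had 2 and 0 reads in cell2_LY and in normalized counts stood at 2.18 and 0 against 31.5 and 237, and its level over the group totals was 129.9 times higher in LY_DMSO (95% counting interval 35.6 to 1078). GSTM3 differed several-fold between the controls themselves, and ANKRD37, a hypoxia gene, was at 31.7 and 1.97 against 1.85 and 0 (2.54, SE 1.36, adjusted p = 0.282), a ratio of 17.4 that rested on 2 reads in LY_DMSO (95% counting interval 4.42 to 149.7), and was not called. GSTA3 had a log2 difference of -2.93 without cell2_LY_1 (not called), -3.68 without cell2_LY_2 (not called), -1.15 without LY_DMSO_1 (not called) and -5.46 without LY_DMSO_2. PRDX6 was at -0.74 without cell2_LY_1 (not called) and -1.19 without LY_DMSO_2 (not called). CHAC1 stood at -5.20 without cell2_LY_1 and -1.57 without cell2_LY_2.

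The Wnt, ErbB and MAPK, Notch and FGF lists had medians above 0 and were called in 1 direction, with 14.3%, 15%, 24% and 18.2% higher against 8.71% of all tested genes. The median levels of these lists were 122, 343, 126 and 349 normalized counts. In the third of the 5 groups of genes by level (119 to 348 normalized counts) 15.2% of all genes were called higher and 7.16% lower. In the fourth group the shares were 7.26% and 8.98%. The Wnt and the ErbB and MAPK shares were thus near that of the third group. For Wnt signalling 5 of 35 genes were higher and 0 lower (median 0.63), with the ligand WNT6 at 224 and 164 against 51.0 and 58.2 (1.79, SE 0.45, adjusted p = 0.0833) and the adaptor DVL2 at 302 and 132 against 62.1 and 39.7 (1.99, SE 0.52, adjusted p = 0.0883). For ErbB and MAPK signalling the counts were 6 and 0 of 40 (median 0.51), with the immediate early gene JUN at 264 and 242 against 38.9 and 48.1 (2.52, SE 0.44, adjusted p = 0.0711) and the receptor ERBB3 at 779 and 775 against 381 and 342 (1.10, SE 0.28, adjusted p = 0.0838). For Notch signalling they were 6 and 0 of 25 (median 0.29), with NOTCH3 at 84.1 and 28.6 against 9.27 and 1.85 (3.21, SE 0.99, adjusted p = 0.11) and the glycosyltransferase RFNG at 273 and 148 against 63.9 and 53.6 (1.76, SE 0.45, adjusted p = 0.0867). For FGF receptors and ligands they were 4 and 0 of 22, and FGFR4 (469.6 and 220 against 519.8 and 205, -0.02, SE 0.60, adjusted p = 0.985) was not called. In the cytokine list 5 of 28 were higher and 2 lower. NFKB1, a subunit of the transcription factor NF-κB, was at 395 and 459 normalized counts in cell2_LY and 172 and 191 in LY_DMSO (1.23, SE 0.32, adjusted p = 0.0874), and IL6, an inflammatory cytokine, was at 201 and 659.9 normalized counts in cell2_LY and 659 and 2139 in LY_DMSO (-1.70, SE 0.67, adjusted p = 0.168). The remaining lists gave calls in both directions or in fewer than 4 genes: Hippo signalling (5 higher and 2 lower of 39), TGF-beta signalling (2 and 2 of 37), hypoxia (6 and 2 of 37), interferon-stimulated genes (0 and 3 of 22), antigen presentation (1 and 1 of 22), DNA methylation (2 and 2 of 20), imprinted genes (2 and 2 of 15) and amino acid transporters (4 and 2 of 22). NOTCH3 had a log2 difference of 2.45 without cell2_LY_1 (not called). IL6 was at -0.85 without cell2_LY_1 (not called), -2.56 without cell2_LY_2 and -0.85 without LY_DMSO_2 (not called).

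**Figure D4:**
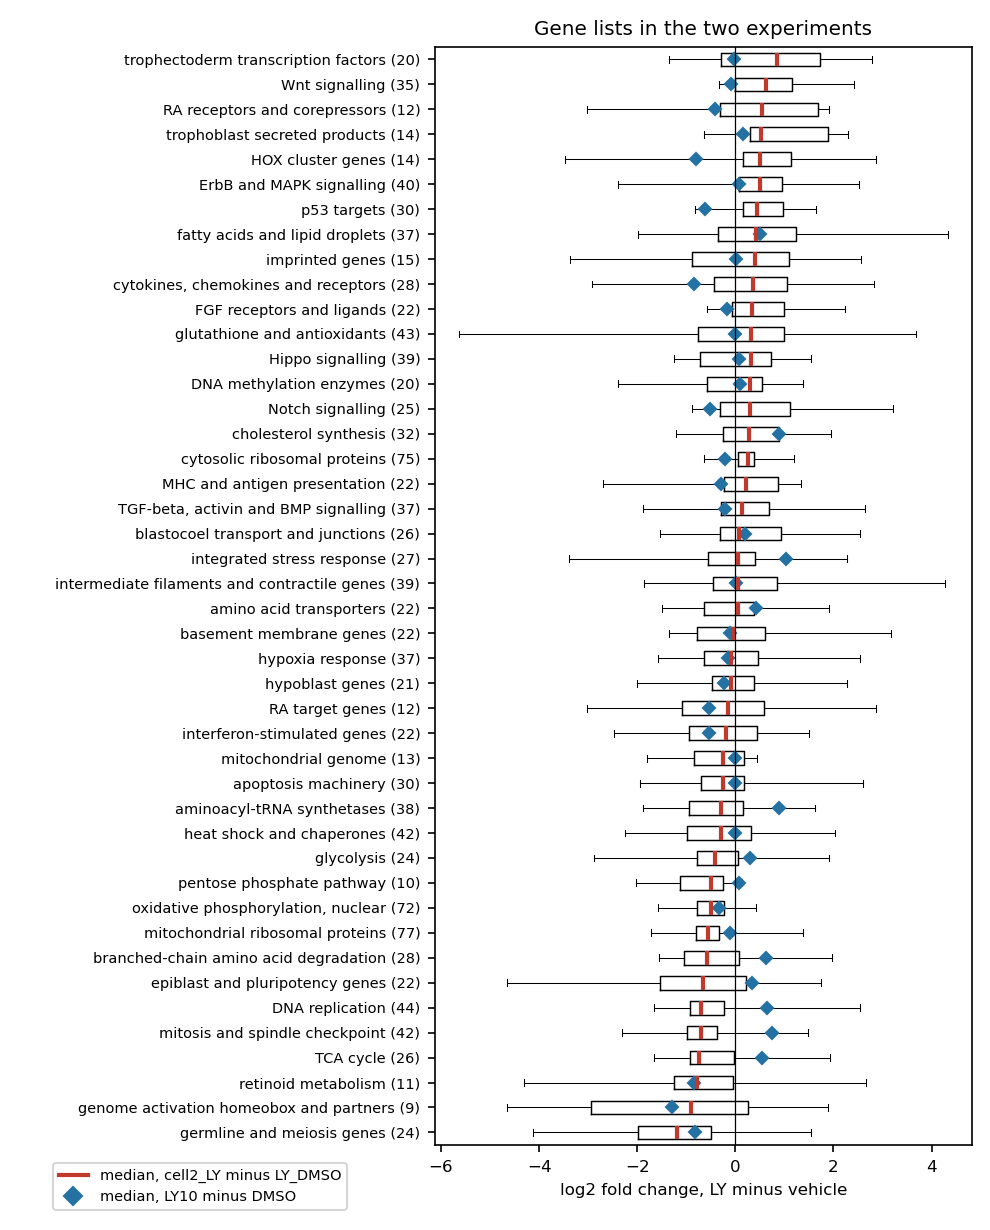
Distribution of log2 differences between cell2_LY and LY_DMSO over the tested members of each gene list (box for the middle of the members, whiskers for the lowest and highest, red line for the median, number tested in brackets), with the median of LY10 minus DMSO as a blue diamond. Medians run from -1.20 for germline genes to 0.85 for trophectoderm transcription factors.

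The X-linked genes were counted apart because the embryos differed in Y-linked reads. Of 545 tested X-linked genes 10 (1.83%) were higher and 107 (19.6%) lower, with a median of -0.60, against 9.0% higher, 7.83% lower and a median of 0.02 on the autosomes. Without LY_DMSO_2, the blastocyst with no Y-linked reads, 13 were higher and 52 lower and the median was -0.29. Without LY_DMSO_1 the median was -0.89, with 12 higher and 166 lower. USP9Y, a Y-linked deubiquitinase, was at 758 and 911 against 712 and 0 normalized counts, and XIST, the RNA that coats the inactive X chromosome, at 3133 and 47.3 against 2438 and 5142. XIST was abundant together with Y-linked reads in cell2_LY_1 and LY_DMSO_1, and only in cell2_LY_2 was it low. The sex of the embryos and the treatment cannot be told apart with 2 blastocysts in each group. This touches the X-linked genes named above, among them STAG2, PRPS1, PRDX4, HSD17B10, TEX11 and LOC112445002.

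For several named genes the start at the 2-cell stage was compared directly with the start at the 16-cell stage, in the same fit and without the shared control. RARB differed by -2.25 on the log2 scale (SE 0.48, adjusted p = 0.191) than in cell16_LY, and GFPT2 differed by -2.50 (SE 0.43, adjusted p = 0.186). GATA2 was higher by 1.94 (SE 0.34, adjusted p = 0.186), FADS2 by 2.05 (SE 0.40, adjusted p = 0.186) and MYBPC3 by 1.75 (SE 0.36, adjusted p = 0.191). In each of these 5 genes the limma p for the difference between start times was under 0.05 before adjustment. The genes were chosen by their difference between the same cell2_LY blastocysts and LY_DMSO. That choice favours a small p here, so this is no independent test. PAG11 differed by -3.02 (SE 0.56, adjusted p = 0.186), TPI1 by -2.65 (SE 0.51, adjusted p = 0.186), LDHA by -2.28 (SE 0.56, adjusted p = 0.193) and PGK1 by -1.59 (SE 0.29, adjusted p = 0.186), all lower with the early start. The paper had already reported TPI1, PGK1 and LDHA as higher with the later start, from the same blastocysts. These genes were taken up for that reason, so their direction is no independent test either. For ALDH1A3 the difference was -0.13 (SE 0.40, adjusted p = 0.888), for TNFSF9 -0.10 (SE 0.47, adjusted p = 0.926) and for BRDT -0.03 (SE 0.30, adjusted p = 0.969), with no call between the start times. Over all tested genes 839 (5.77%) were higher and 810 (5.58%) lower in cell2_LY than in cell16_LY at the same threshold, and 0 passed adjustment by limma, with 2596 (17.9%) at an unadjusted p under 0.05.

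LY from the 2-cell stage was also examined in the separate experiment with LY10 and DMSO blastocysts, with which the comparison shares no sample. Over 12705 genes tested in both tables, the log2 differences had a Pearson correlation of 0.04 and a Spearman correlation of -0.04 across genes, which share the libraries of each experiment and are not independent replicates. Of the 1118 genes among them that were higher in cell2_LY, 47 (4.2%) were also higher in LY10, out of 865 such genes there (5.43%), and 76 (6.80%) were lower. Of the 1146 genes lower in cell2_LY, 64 (5.59%) were lower in LY10 as well, out of 875 (7.31%), and 132 (11.5%) were higher, out of the 865 (15.3%). For reference, 6.81% of the 12705 genes were higher and 6.89% lower in LY10. Genes that were higher in cell2_LY had a median log2 difference of -0.04 in LY10, and genes that were lower had one of 0.16. AGPAT2 (2.54 here and 1.48 there) and MVD (1.21 and 1.95) are examples of genes that were higher in both experiments, and DUXA (-4.00 and -8.77), ARGFX (-2.94 and -3.41) and LOC538435 (-2.91 and -5.79) of genes that were lower in both. DUXA, ARGFX and LOC538435 were on a fixed set of genes chosen with earlier results of these data known.

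The difference of the LY effects between the experiments was tested as an interaction in 12772 genes. At an adjusted p under 0.05 by limma 571 genes (4.47%) differed, 458 (3.59%) with a lower and 113 (0.885%) with a higher effect here, and 3032 (23.7%) had an unadjusted p under 0.05. Of the 571 genes, 454 had a log2 difference below 0 here and above 0 in the first experiment, 113 the reverse and 4 the same sign in both. The count rests on single blastocysts. It was 0 without LY_DMSO_1, LY10_2 or LY10_3, 1 without LY_DMSO_2 and 2 without cell2_LY_1. It was 80 without DMSO_1, 133 without DMSO_2, 173 without LY10_1 and 1286 without DMSO_3. Aminoacyl-tRNA synthetases held 14 of these genes among 38 tested, with medians of -0.29 here and 0.88 there. Mitosis genes held 12 of 42 (medians -0.70 and 0.74), and DNA replication genes 7 of 44 (-0.69 and 0.65). In the TCA cycle 7 genes had a lower and 2 a higher effect here (-0.73 and 0.55). UQCRC1 was at 3983, 2726 and 2916 in LY10 and 644, 389 and 1224 in DMSO, a log2 difference of 2.23 there and -1.57 here (interaction -3.80, SE 0.61, adjusted p = 0.0242 by limma). CDKN1A was at 36.8, 103 and 67.3 in LY10 and 168, 432 and 237 in DMSO, or -2.01 there and 1.64 here (interaction 3.65, SE 0.71, adjusted p = 0.0285 by limma). PDGFRA was at 926, 4099 and 2259.6 in LY10 and 206, 45.8 and 371 in DMSO, or 3.74 there and -2.01 here (interaction -5.75, SE 1.23, adjusted p = 0.0335 by limma). The 2 experiments differ in table, scaling, control group and possibly concentration, and these cannot be told apart from a difference in the response.

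**Figure D5:**
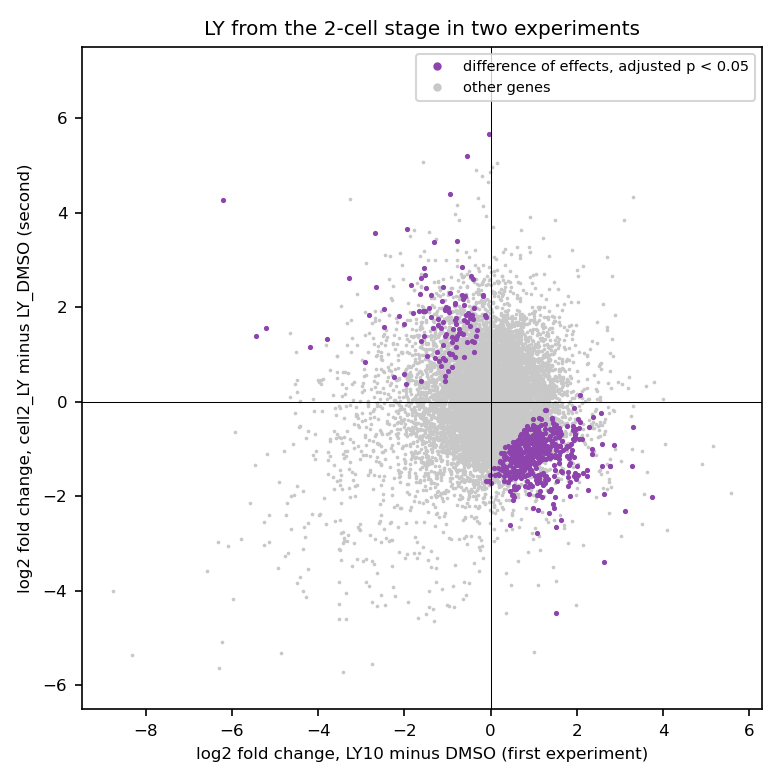
Log2 difference of LY10 minus DMSO in the first experiment (horizontal axis) against cell2_LY minus LY_DMSO (vertical axis) with the genes whose effects differed at an adjusted p under 0.05 in purple. Most of the purple points lie at the lower right, the place of the 454 genes that were below 0 here and above 0 in the first experiment.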

How the data were processed

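RNA of 1 day 8 blastocyst per library was amplified by SMART-seq and sequenced as paired reads. Per the submitters' processing notes and the methods, reads were trimmed with fastp, aligned with HISAT2 2.0.5 (the methods name STAR as well), counted with featureCounts 1.5.0-p3, assembled with StringTie 1.3.3b and compared with DESeq2 1.20.0, whose fold changes and p-values are in the tables and were not used. The deposited values are named normalized counts, but the authors' values are FPKM, divided by gene length and library size. Multiplying them by gene length gave whole reads for 100% of the values, within 0.02 reads. Because the FPKM library size is the authors' own scaling, a normalized count depends on it.

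Reads divided by that library size were multiplied by the geometric mean library size (15246235 for the table with cell2_LY, 10651692 for that with LY10). Genes with a mean of at least 10 over 6 blastocysts were tested on log2(normalized count + 1) with limma 3.58.1 (lmFit, and eBayes with its trend option) in R 4.3.3. The table's 3 groups shared a fit with 3 residual degrees of freedom. Genes were called when p before adjustment was under 0.05 and the log2 difference exceeded 1 in size. SE is that of the log2 difference. The difference between the experiments was an interaction contrast over 10 libraries, each table scaled by itself.

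Named genes were those among the 10 smallest p per direction (mean of 50 or more, groups without overlap), those among the 3 smallest for genes known only by a LOC symbol, called or extreme members of a list, and a set of retinoid, lineage, sex and metabolic genes. The members and lists were chosen with earlier results of these data known. Limits (3 reads) and 95% intervals hold counting error alone, as the methods name no molecular identifiers. Alternatives were pseudocounts of 0.5 and 5, no filter on low levels, a mean of 50 or more, reads on genes, TMM or median-of-ratios size factors, quantile normalization, the log2(FPKM + 1) scale for genes averaging 0.5 FPKM or more, voom, array weights, the 4 blastocysts alone, a block for the replicate number, omission of sex-linked genes, omission of each library in turn, and, added after seeing the data, cyclic loess and removal of the trend with gene length. Results for some genes are not reported here. No sequence is shown because none was at hand. Python 3.11.15 with pandas 2.3.3, numpy 2.4.6, scipy 1.17.1 and matplotlib 3.10.9 served for tables and plots.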

Additional observations from a re-analysis of the deposited data

Results flagged for a closer look

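The LY effect differed between the 2 experiments for 571 genes by the interaction test at an adjusted p under 0.05, and the genes below are those named in the report. Values are the log2 difference in cell2_LY minus LY_DMSO less that in LY10 minus DMSO, and their causes were not tested. Of the lower effects in cell2_LY, translation and RNA genes were MRPL2 (-3.39), MRPS35 (-1.73), LARS1 (-2.40), FARSB (-2.33), ELP2 (-2.48), PUM3 (-2.42), LOC112446470 (-4.17) and LOC112445002 (-3.51). Replication and mitosis genes were MCM6 (-2.71), ORC3 (-2.13), CKAP2 (-3.10), KIF20A (-2.71), NUF2 (-2.12), CDC20 (-2.73) and PLK1 (-5.43). Metabolic genes were GOT1 (-2.69), UQCRC1 (-3.80), PGD (-2.40), LDHB (-1.54), IDH1 (-1.50), SUCLA2 (-2.92) and HSD17B10 (-2.18). Stress response and folding genes were SLC3A2 (-3.47), ASNS (-2.93), CHAC1 (-6.01), TCP1 (-3.24) and CCT7 (-2.48). Lineage, adhesion and other genes were DPPA4 (-2.88), PDGFRA (-5.75), CDH1 (-3.10), NID1 (-4.12), KIT (-3.61) and BCL2L14 (-4.59). The effect was higher in cell2_LY for the regulators GATA2 (2.37), ELF3 (4.21), OVOL1 (2.90), HOXC13 (5.35), PPARD (3.43) and CDKN1A (3.65). It was also higher for HSPA1A (4.66), BAG3 (4.06), TAGLN (10.48), PC (1.92), OGDH (2.996), ACAD8 (2.97) and LOC132345462 (3.52). In 141 of the 571 genes both experiments made a call, in opposite directions. The difference of PGD, CDC20, HOXC13 and NID1 came mostly from the first experiment, where their log2 differences were 2.03, 1.97, -4.19 and 2.76, and none of the 4 was called in cell2_LY. Groups of 2 or 3 blastocysts are too small for a test of single outlying libraries.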

How the results depend on the processing

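Under 22 alternatives, 6 of which left out 1 library of the table, none of the 124 called genes of the report changed sign and 83 kept their call throughout. Not all alternatives could change a result. Median-of-ratios size factors matched the main scaling up to a constant, so they repeated the main fit. Array weights, the 4 blastocysts alone and a block for the replicate number could change a p but not a log2 difference. The same holds for omission of a cell16_LY blastocyst, so a change of sign was not possible there. Of 44 list medians, 7 stayed within the spread between replicates under every alternative. Genes called higher fell from 1265 to 720 with log2(FPKM + 1), and genes called lower from 1211 to 674 with reads on genes as library size. Genes with an adjusted p under 0.05 numbered 2, and 0 with no filter, log2(FPKM + 1), voom, array weights, the 4 blastocysts alone, cyclic loess or the gene length trend removed. With 1 library left out, the counts ran from 698 to 1563 higher, 853 to 1878 lower and 0 to 875 adjusted. For the difference between the experiments the 571 genes became 301 with quantile normalization and 1164 with array weights, and between 0 and 1286 with 1 library left out. The causes of these changes were not tested.

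The labels do not say what same-numbered replicates share, and the values do not settle it: their deviations correlated at 0.12 for cell2_LY and LY_DMSO, and at -0.13 and -0.23 with cell16_LY. With the replicate number as a block 1240 genes were higher and 1249 lower, 3 passed adjustment, and 181 differed between the experiments.

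Signs turned in results that were not called. SOX2 was at -0.19 under quantile normalization and -0.29 under cyclic loess, PGD at 0.0478 and 0.0849, and FGFR4 at 0.21 with reads on genes and 0.0199 with TMM. With 1 library left out, POU5F1 ranged from -0.27 to 0.45, SOX2 from -0.56 to 0.59, PGD from -0.91 to 0.17, NID1 from -2.95 to 0.23, HOXD8 from -0.34 to 1.21, FGFR4 from -0.69 to 0.65 and the median of the p53 targets from -0.13 to 0.81. Sequencing depth limits genes near 3 reads, such as RARG, for which no difference was detectable.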
